A study of Mus musculus with 5 samples.

Results

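Cardiac fibroblasts from failing and from non-failing mouse hearts were compared for the expression of cullins and F-box proteins, the scaffolds and substrate receptors of cullin-RING ubiquitin ligases (CRLs). The comparison uses 2 of the 5 samples of the series, chosen by their labels, and all 130 probe sets that the authors deposited by gene name. They read 71 genes, of which 8 code for cullins, 33 belong to the Fbxo, 13 to the Fbxw and 17 to the Fbxl family. The failing sample came from male beta1-adrenergic transgenic mice with heart failure, and the non-failing sample from healthy male C57Bl/6N mice. All animals were 6 months old, and each sample was a pool of 5 mice with no technical replicate. The promoter and cell type in which the transgene is active and the strain behind it were not found in the labels or methods, so that transgene, strain and heart failure cannot be told apart. The other 3 samples of the series, all from healthy male C57Bl/6N mice, were left ventricle, isolated cardiomyocytes (CM) and lung fibroblasts. They enter only as values set beside those of the fibroblasts.

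Cardiac fibroblasts produce the collagen matrix of the heart and take on a contractile, matrix-secreting state in failing hearts. Mice with additional beta1-adrenergic receptor in the heart are known as a model of hypertrophy that proceeds to failure. In a CRL, the cullin holds a RING protein at its C-terminus, which recruits the ubiquitin-charged E2 enzyme, and an adaptor with a substrate receptor at its N-terminus. Cul1 binds F-box proteins through Skp1. The F-box protein chooses the substrate by WD40 repeats (Fbxw), by leucine-rich repeats (Fbxl) or by other domains (Fbxo), and a change in its amount can alter which proteins are degraded.

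Levels are deposited on the log2 scale, on which a difference of 1 is a factor of 2. For each gene the probe sets were averaged. With 1 sample a side there was no replicate error, and no test was made. Of 34 genes listed as markers of cardiac fibroblasts, activated fibroblasts, CM, endothelial cells, macrophages and smooth muscle, 0 were among the 71 genes, so the labelled cell type was not checked here. The median over the probe sets was 6.67 in the non-failing sample and 6.51 in the failing one, and the lowest values of these samples were 4.82 and 4.76. The left ventricle sample reached down to -3.32 and CM to -0.75, so that low values are not on a common scale across the series.

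A gene was counted as different when its levels lay at least 2-fold apart and the higher of the 2 was at least 6.0, the value from which the methods regard expression as relevant. By this rule 14 of the 71 genes (19.7%) were higher and 16 (22.5%) lower in failing cardiac fibroblasts, together 42.3%. Among the genes higher in the failing sample were Fbxl12, Fbxo34, Fbxo38, Fbxo5 and Fbxw14, and among the lower ones Cul4a, Fbxo2, Fbxo36, Fbxo31 and Fbxw19. In a bulk sample, fewer cells that express a gene and less RNA per cell cannot be told apart. In the same way, 57.7% of the genes differed between CM and non-failing cardiac fibroblasts and 56.3% between lung and non-failing cardiac fibroblasts. These counts share the non-failing sample. Levels also spread more widely in CM and lung fibroblasts, with an SD over the probe sets of 2.62 and 2.12. It was 1.11 in the non-failing and 1.20 in the failing sample. The shares thus do not measure how alike the samples are. At the level of probe sets, 28 of 130 (21.5%) were at least 2-fold higher and 37 (28.5%) lower in the failing sample, 50% in all.

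**Figure D1:**
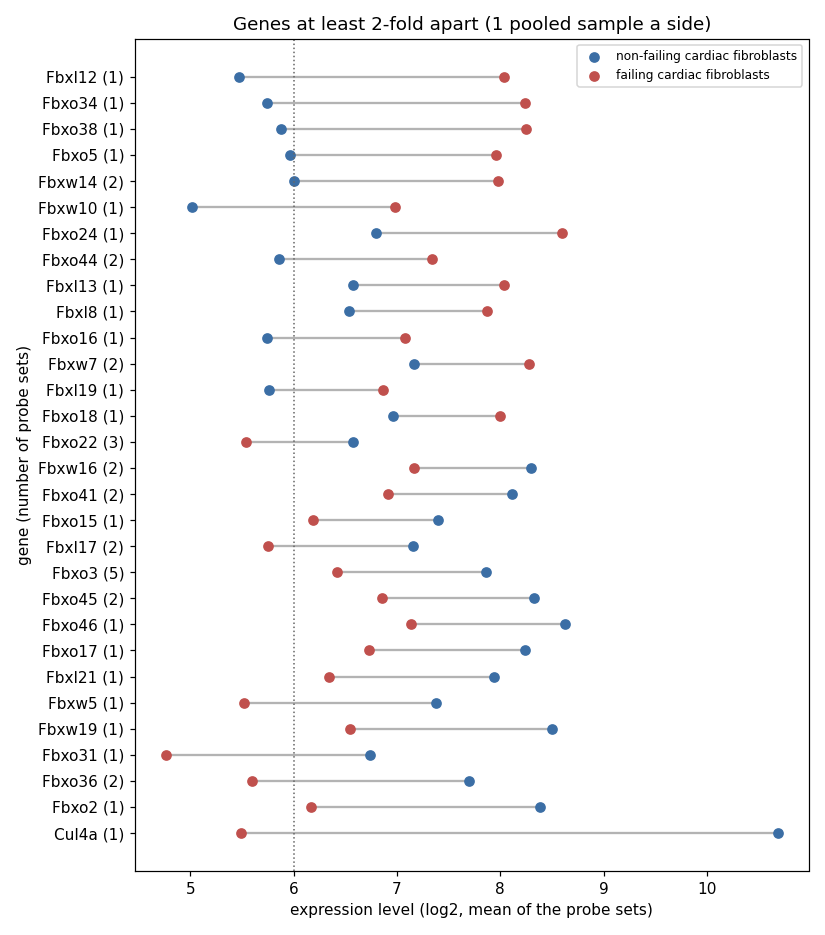
Expression level (log2, horizontal axis) in non-failing (blue) and failing (red) cardiac fibroblasts for the 30 genes at least 2-fold apart, 1 pooled sample a side, with the number of probe sets in brackets; the dotted line marks 6.0. Cul4a had the widest gap, from 10.69 to 5.49, and 20 of the 30 genes rest on 1 probe set.

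Over the 71 genes, levels in the 2 fibroblast samples were weakly related, with a Pearson's r of 0.11 and a Spearman's rho of 0.18. Genes are not independent replicates, and all points share the same pair of arrays. In the 14 higher genes the level ran from 5.01 to 7.16 in the non-failing and from 6.87 to 8.60 in the failing sample, and 8 of them lay under 6.0 in the non-failing sample. In the 16 lower genes it ran from 6.58 to 10.69 in the non-failing and from 4.76 to 7.16 in the failing sample, where 6 lay under 6.0. These ranges follow in part from the rule, which used the same levels. Over all genes, 27 lay at 7.0 or over in the non-failing sample, and 21 of these had a negative difference. Another 18 lay under 6.0 there, and 11 of these had a positive difference. Of all 71 genes, 42 reached 6.0 in both samples, 10 only in the failing, 11 only in the non-failing and 8 in neither.

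**Figure D2:**
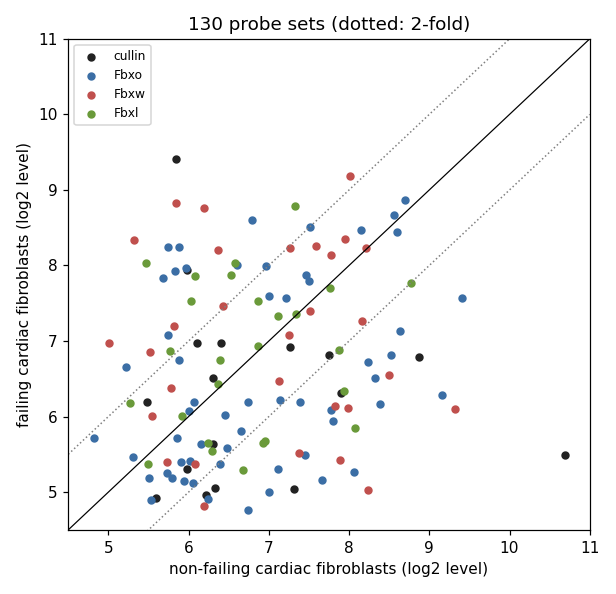
Level (log2) of each of the 130 probe sets in non-failing (horizontal axis) and failing (vertical axis) cardiac fibroblasts, coloured by family; the solid line marks equal levels and the dotted lines 2-fold differences. In all, 50% of the points are at least 2-fold apart with a level of at least 6.0, and the cullin point at the far right is Cul4a.

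The only spread that the design gives is the disagreement between probe sets of the same gene. It does not measure the error between mice, pools or arrays. Of the 71 genes, 39 were read by 1 probe set and 32 by several, and 13 of the latter by at least 3. The probe sets of 10 of these 32 genes all differed in 1 direction, 4 higher and 6 lower in the failing sample, while those of the other 22 disagreed in sign. The SD of the probe-set differences within a gene had a median of 1.12 on the log2 scale and ranged from 0.085 for Fbxo9 to 2.96 for Fbxw16. It exceeded the size of the mean difference in 22 genes. Of the 109 pairs of probe sets that read the same gene, 53 (48.6%) had differences of the same sign. Among pairs that read different genes this share was 49.9%. In 6 genes, 1 probe set was higher and another lower in the failing sample, both by a factor of 2 or more.

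**Figure D3:**
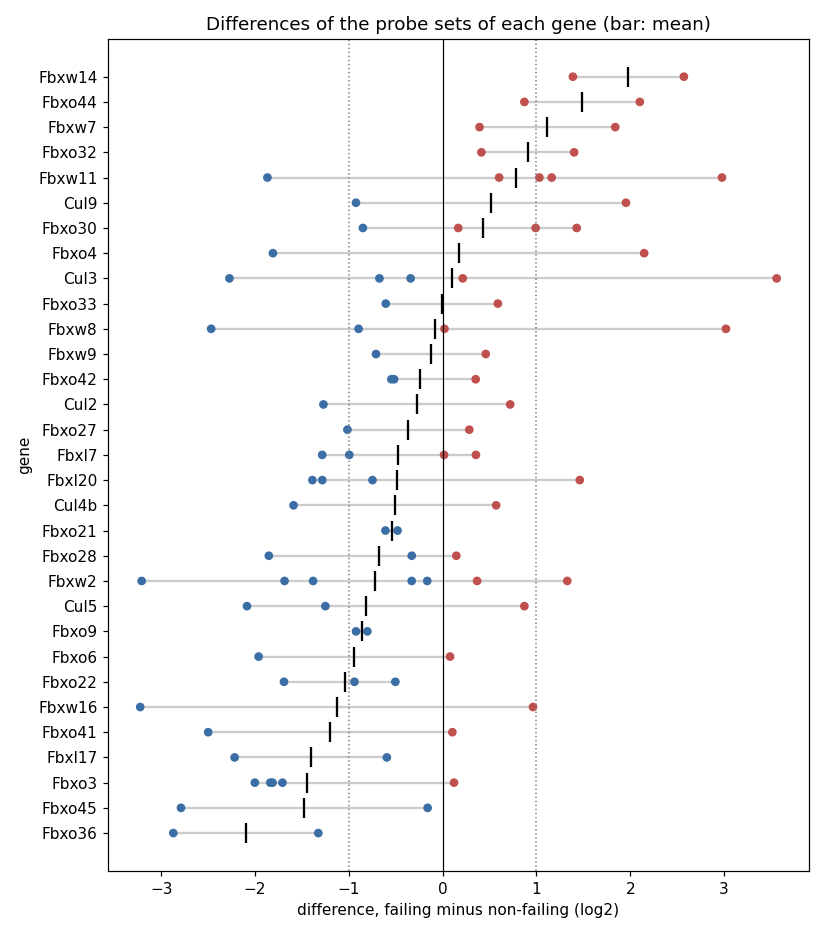
Difference between failing and non-failing cardiac fibroblasts (log2, horizontal axis) of each probe set, red where higher and blue where lower in the failing sample, for 31 of the 32 genes with several probe sets; black bars mark the mean and dotted lines a 2-fold difference. The probe sets of Fbxw14, Fbxo44, Fbxw7 and Fbxo32 all lie on the higher side, those of Fbxo36, Fbxo45, Fbxl17, Fbxo22, Fbxo9 and Fbxo21 all on the lower side, and those of the other genes straddle 0.

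Among the 14 higher genes, 11 had 1 probe set and 3 had several of 1 direction. Among the 16 lower genes, 9 had 1 probe set, 4 had several of 1 direction and 3 had probe sets of both directions. The 7 genes with agreeing probe sets were Fbxw14, Fbxo44 and Fbxw7 on the higher side and Fbxo36, Fbxo45, Fbxl17 and Fbxo22 on the lower side. Such agreement carries little weight. Pairs of probe sets shared a sign in 48.6% of cases within a gene and in 49.9% between genes.

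Fbxw7, the receptor that leads cyclin E, Myc and Notch to degradation, was read at 7.95 and 6.37 in the non-failing sample and at 8.35 and 8.21 in the failing sample. The mean was higher by 1.12 with an SD of 1.02 over the 2 probe sets, a fold of 2.17. Most of this came from the second probe set, which alone was higher by 1.84.

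Fbxw14, from a group of Fbxw genes that has expanded in rodents, was read at 5.81 and 6.19 in the non-failing and at 7.20 and 8.76 in the failing sample. Both readings were thus over 2-fold higher, with a mean difference of 1.98 and an SD of 0.84. The level of Fbxw14 was 0.57 in left ventricle, 0.18 in CM and 3.89 in lung fibroblasts, below both cardiac fibroblast samples. Low levels cannot be compared here. No probe set lay under 4.82 in the non-failing or 4.76 in the failing sample. The lowest values were -3.32 in left ventricle, -0.75 in CM and 1.76 in lung fibroblasts.

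Fbxo22, which with the demethylase Kdm4a acts on methylated p53, had 3 probe sets. By the deposited log2 levels it was the only gene with as many whose probe sets agreed in direction. With the whole-array intensities, Fbxl20 with its 4 probe sets did so as well. The probe sets of Fbxo22 read 6.06, 7.77 and 5.91 in the non-failing sample and 5.12, 6.08 and 5.4 in the failing sample. The mean was lower in the failing sample, with a difference of -1.04 and an SD of 0.60. It lay just inside the 2-fold rule and left it when the medians of the samples were made equal, at -0.89. By its probe set of a plain _at name alone, the difference was -0.50.

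Fbxl17, which removes wrongly paired BTB-domain proteins, was read at 6.24 and 8.07 in the non-failing and at 5.65 and 5.85 in the failing sample, a mean difference of -1.41 with an SD of 1.15. Fbxo36 was read at 6.24 and 9.16 against 4.91 and 6.29, a mean difference of -2.10 with an SD of 1.09, and both of its probe sets were over 2-fold lower. Fbxo45, which pairs with the large ligase Mycbp2 in neurons, was read at 8.60 and 8.06 against 8.44 and 5.27. Its mean difference of -1.47 came almost wholly from the second probe set, at -2.79, since the first differed by -0.16.

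**Figure D4:**
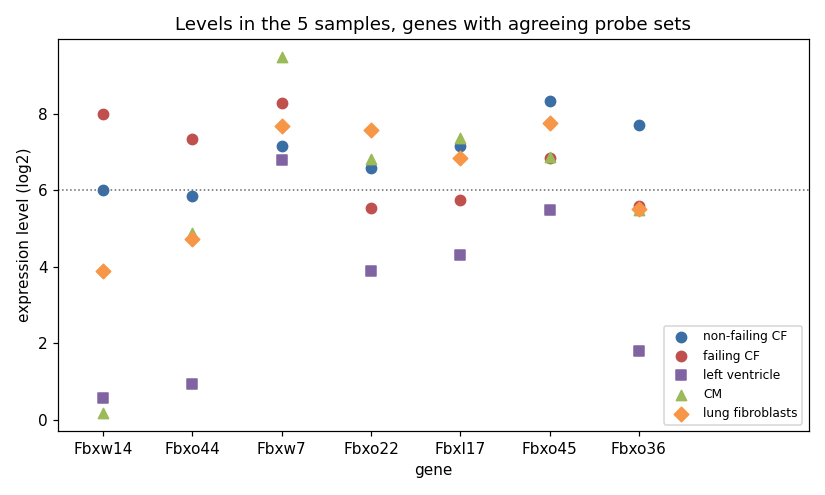
Expression level (log2, vertical axis) in the 5 samples for the 7 genes at least 2-fold apart whose probe sets all differed in 1 direction; the dotted line marks 6.0. Fbxw14 and Fbxo44 stood highest in failing cardiac fibroblasts, and Fbxo36 and Fbxo45 highest in non-failing cardiac fibroblasts.

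Beside the other samples, the failing level lay above those of left ventricle, CM and lung fibroblasts in 12 of the 14 higher genes, the exceptions being Fbxw7 and Fbxl19. The non-failing level lay above those 3 samples in 8 of the 14. In the 16 lower genes, the non-failing level lay above the other 3 samples in 11, and the failing level lay within their range in 11 and above it in 4. Fbxw5 was the exception, with 5.52 in failing cardiac fibroblasts as the lowest level of the series. The 14 genes were chosen for a higher failing level and the 16 for a higher non-failing level. Such positions follow in part from that choice. Both cardiac fibroblast levels also lay above the other 3 samples in genes outside the rule, such as Fbxl16, Fbxl18 and Fbxw13. In others, such as Fbxo9 and Fbxl5, both lay below. The positions were not tested, and the lower ends of the other 3 samples differ from those of the cardiac fibroblasts.

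By family, the median difference between failing and non-failing cardiac fibroblasts was -0.59 in the cullins, -0.44 in the Fbxo, -0.12 in the Fbxw and 0.090 in the Fbxl family, against -0.13 over all 71 genes. The medians of the Fbxw genes and of all genes turned positive under each scaling between samples tried, for example to 0.037 and 0.032 with equal medians. Those of the cullins and of the Fbxo genes stayed below 0 and that of the Fbxl genes above 0 under each scaling between samples. The choice of probe sets mattered more for the cullins. With probe sets of a plain _at name alone, the median turned to 0.52 in the cullins, 0.19 in the Fbxw genes and 0.024 over all genes. It was then -0.37 in the Fbxo and 0.22 in the Fbxl genes. The middle of the distribution, from the lower to the upper quartile, ran from -1.20 to 0.89 in the Fbxo genes and from -0.13 to 0.91 in the Fbxl genes. Under the 2-fold rule 12.5% of the cullins, 51.5% of the Fbxo, 46.2% of the Fbxw and 35.3% of the Fbxl family differed, beside 42.3% over all genes.

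**Figure D5:**
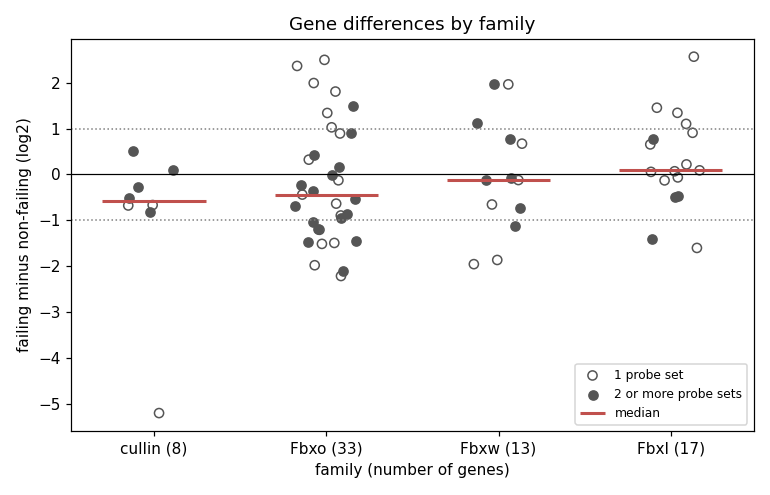
Difference between failing and non-failing cardiac fibroblasts (log2, vertical axis) of the 71 genes by family, open circles for genes with 1 probe set and filled circles for several; red lines mark the family medians and dotted lines a 2-fold difference. Each family spans 0, and the points beyond the dotted lines are mostly open circles.

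Of the 8 cullins, 1 was at least 2-fold lower (12.5%) and 0 were higher in failing cardiac fibroblasts. Over all genes 22.5% were lower and 19.7% higher. Cul4a, the scaffold of ligases that use Ddb1 in DNA repair and replication, was at 10.69 in the non-failing sample and 5.49 in the failing sample, 36.7-fold lower, by its 1 probe set. The size depends on the scaling, with a log2 difference of -5.20 as deposited, -4.36 after quantile normalization over the 2 samples and -6.65 over all 5 samples. The non-failing level was near those of CM, 11.52, and lung fibroblasts, 10.93, while left ventricle was read at -0.51. Its paralogue Cul4b, with 2 probe sets, was at 7.15 and 6.64, a difference of -0.51 with an SD of 1.53. Cul4b was read at 7.90 and 6.41 in the non-failing and at 6.31 and 6.98 in the failing sample, so that its probe sets moved apart in sign.

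The promoter of Cul4a is shown because this gene had the widest gap, from 250 bases before to 50 bases after its start, as given by RefSeq for the GRCm38.p6 assembly at chr8:13105373-13105672 on the + strand. Capitals mark the GC box GGGCGG, searched on both strands, which occurs 3 times.
Cul4a: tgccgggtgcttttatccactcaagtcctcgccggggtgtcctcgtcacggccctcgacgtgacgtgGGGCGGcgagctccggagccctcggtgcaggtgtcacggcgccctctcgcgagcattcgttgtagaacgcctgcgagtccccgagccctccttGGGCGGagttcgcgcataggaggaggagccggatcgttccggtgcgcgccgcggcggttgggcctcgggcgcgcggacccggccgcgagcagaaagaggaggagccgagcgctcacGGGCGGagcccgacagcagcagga
The GC box was found in 35.7% of the 32851 promoters of that table, with every promoter counted. Among the 54 measured genes that the table holds it was found in 34 (63.0%), using the most upstream start of each gene. The 2 shares are thus over unlike sets. It stood in 7 of 10 higher, 9 of 13 lower and 18 of 31 other genes. The full cAMP response element TGACGTCA, the site of the factor Creb downstream of beta-adrenergic receptors, stood in 1 of the 54 genes, which was not 2-fold different, and in 1.79% of all promoters, again on both strands. The letters of these motifs allow no overlap between them. Such a match describes letters only.

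Cul3, the scaffold of BTB-domain receptors, had 5 probe sets and a mean of 6.54 in the non-failing and 6.64 in the failing sample. This near equality covers the widest disagreement among the cullins. The probe sets read 5.85, 5.98, 6.30, 7.27 and 7.32 in the non-failing sample and 9.41, 5.31, 6.51, 6.93 and 5.05 in the failing sample, so that their differences ran from -2.27 to 3.56. Cul5, the scaffold of SOCS-box ligases, had a mean difference of -0.82 with an SD of 1.52, from probe sets at 0.87, -1.25 and -2.09. Cul2, which carries the von Hippel-Lindau receptor, differed by -0.28 with probe sets at 0.72 and -1.27.

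Cul1, the scaffold of the F-box ligases themselves, stood at 6.31 and 5.63, a difference of -0.68, and Cul7, which pairs with Fbxw8, at 5.59 and 4.93, a difference of -0.67, each from 1 probe set. Cul9, a cullin that binds p53, was at 6.86 and 7.38, higher by 0.52 with an SD of 2.03. In all, 6 of the 8 cullins were lower in the failing sample, beside 41 of all 71 genes. None of the 5 cullins with several probe sets differed in 1 direction throughout. With probe sets of a plain _at name alone, which leave 7 cullins, the median difference turned to 0.52.

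Of the 33 Fbxo genes, 7 were at least 2-fold higher (21.2%) and 10 lower (30.3%) in failing cardiac fibroblasts. Over all genes these shares were 19.7% and 22.5%. The widest gaps on the higher side were those of Fbxo34, from 5.74 to 8.24, Fbxo38, which in T cells targets the receptor PD-1, from 5.88 to 8.25, and Fbxo5, from 5.97 to 7.96. Fbxo5, also named Emi1, restrains the anaphase-promoting complex in dividing cells. All 3 genes were read by 1 probe set, and their failing levels lay above the other 4 samples. Fbxo24, from 6.79 to 8.60, Fbxo16, from 5.74 to 7.08, and Fbxo18, the DNA helicase now named Fbh1, from 6.97 to 7.99, were also read by 1 probe set.

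On the lower side, Fbxo31, which leads cyclin D1 to degradation after DNA damage, was at 6.74 in the non-failing and 4.76 in the failing sample. Fbxo46 was at 8.63 and 7.14, and Fbxo15, a marker of embryonic stem cells, at 7.39 and 6.19. Each had 1 probe set. Fbxo41, a neuronal F-box protein, was at 8.11 and 6.92, with probe sets that differed by 0.10 and -2.50, and its direction turned, to 0.10, when the highest probe set stood for the gene.

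Fbxo3 was the lower gene with the most probe sets. It is a ligase receptor that acts on Fbxl2 in inflamed lung. The readings were 6.07, 8.52, 9.40, 8.32 and 7.0 in the non-failing sample and 6.19, 6.81, 7.57, 6.51 and 5.0 in the failing sample. The first probe set differed by 0.12, and the other 4 lay close together between -1.71 and -2.00, giving a mean of -1.45 with an SD of 0.88. Among the genes listed with Fbxo3 for inflammation, Fbxl2 was at 7.11 and 7.33 by 1 probe set. Fbxl19, which targets the interleukin-33 receptor, was at 5.76 and 6.87, also by 1 probe set. Fbxl7 had 4 probe sets with differences from -1.28 to 0.35 and a mean of -0.48. Of these 4 genes, 1 was 2-fold higher and 1 lower, 50% beside 42.3% over all genes, with a median difference of -0.13.

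The 5 genes with an F-box associated (FBA) domain, which in some members binds glycoproteins, gave 1 higher and 2 lower genes. This was a share of 60% beside 42.3% over all genes, with a median difference of -0.94. Fbxo2, which recognises high-mannose glycans, was at 8.38 in the non-failing and 6.17 in the failing sample, 4.63-fold lower by 1 probe set. Fbxo17 was at 8.24 and 6.73, also by 1 probe set. Fbxo44 was read at 5.88 and 5.83 in the non-failing and at 6.75 and 7.93 in the failing sample, with both probe sets higher and a mean difference of 1.49 with an SD of 0.87. Fbxo6 was lower by one probe set, at -1.96, and level by the other, at 0.080. Fbxo27 differed by -0.37, with probe sets at 0.28 and -1.01.

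In the RefSeq gene table, Fbxo6, Fbxo44 and Fbxo2 are neighbours on chromosome 4 with no other protein-coding gene between them, and Fbxo27 and Fbxo17 are neighbours on chromosome 7. Fbxo44 and Fbxo2 run in opposite directions from windows 73 bases apart and differed in opposite directions, 1.49 and -2.21, between the same samples. Their promoters are shown for this reason, from RefSeq for GRCm38.p6, with the GC box GGGCGG on either strand in capitals. That of Fbxo44 lies at chr4:148160045-148160344 on the - strand and holds 3 GC boxes, and that of Fbxo2 at chr4:148160418-148160717 on the + strand and holds 1.
Fbxo44: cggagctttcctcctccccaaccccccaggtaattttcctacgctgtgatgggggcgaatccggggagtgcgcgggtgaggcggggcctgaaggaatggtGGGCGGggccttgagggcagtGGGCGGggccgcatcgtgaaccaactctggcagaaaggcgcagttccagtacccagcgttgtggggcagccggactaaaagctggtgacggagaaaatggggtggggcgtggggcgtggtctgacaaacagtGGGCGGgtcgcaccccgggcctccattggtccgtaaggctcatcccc
Fbxo2: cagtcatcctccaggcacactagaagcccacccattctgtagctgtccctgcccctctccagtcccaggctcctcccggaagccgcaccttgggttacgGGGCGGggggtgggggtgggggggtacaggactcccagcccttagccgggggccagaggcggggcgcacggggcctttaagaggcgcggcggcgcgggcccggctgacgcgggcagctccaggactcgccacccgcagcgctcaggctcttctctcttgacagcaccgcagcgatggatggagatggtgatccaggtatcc
Each of the windows holds 21 CG dinucleotides, beside a median of 7 over all promoters of the table and 20.5 over the 54 measured genes in it.

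The 4 measured genes listed as muscle ubiquitin ligases gave 0 genes past the 2-fold rule, beside 42.3% over all genes, and a median difference of 0.15. Fbxo32, also named Atrogin-1, lay just outside the rule, with readings of 7.46 and 6.60 in the non-failing and 7.87 and 8.0 in the failing sample. Both probe sets were higher in the failing sample, with a mean difference of 0.91 and an SD of 0.70. Fbxo30, a ligase of muscle atrophy, was higher by 0.43 with an SD of 1.0 over 4 probe sets that ran from -0.85 to 1.43. Fbxo21 differed by -0.54 with an SD of 0.091, since its probe sets read 5.79 and 5.73 against 5.18 and 5.25. Fbxo25 stood at 5.85 and 5.72 by 1 probe set.

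Of 11 measured genes singled out in the study's cell-size screen of CM, 0 were 2-fold higher and 2 lower in failing cardiac fibroblasts, 18.2% beside 42.3% over all genes. The 2 lower ones were Fbxw5 and Fbxo45. The study chose its targets by their level in CM of the same series, so that they are no independent list. Fbxo9 was at 6.54 and 5.68, with probe sets at -0.80 and -0.92 that agreed more closely than those of any other gene, and lay outside the rule. Fbxo33 was at 6.51 and 6.5, with probe sets of -0.61 and 0.59 that cancelled in the mean. Fbxl14 was at 6.86 and 6.93, and Fbxw4 at 7.13 and 6.48, each by 1 probe set.

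Of the 9 measured genes listed for the cell cycle and survival, 3 were higher and 2 lower, 55.6% beside 42.3% over all genes, with a median difference of 0.17. The higher ones were Fbxo5, Fbxw7 and Fbxo18, and the lower ones Fbxo31 and Fbxo22. Fbxo4 is a receptor for cyclin D1, as Fbxo31 is. It had a mean of 6.40 in the non-failing and 6.57 in the failing sample, which hides probe sets over 2-fold apart in both directions, at -1.81 and 2.15. Fbxo7, linked to mitophagy, was at 4.82 and 5.72, Fbxo11 at 6.46 and 6.02, and Fbxo43, a meiotic relative of Fbxo5, at 5.53 and 4.90, each by 1 probe set.

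Of the 13 Fbxw genes, 3 were higher and 3 lower in failing cardiac fibroblasts. This was 23.1% in each direction, beside 19.7% higher and 22.5% lower over all genes. Fbxw10 was at 5.01 and 6.98, 3.90-fold higher by 1 probe set. Fbxw5, which targets the mTOR inhibitor Tsc2, was at 7.38 and 5.52, 3.64-fold lower by 1 probe set. Fbxw11, the beta-TrCP2 receptor for phosphorylated I-kappa-B and beta-catenin, had 5 probe sets of which 4 were higher, from 0.60 to 2.98, and the fifth lower at -1.87. Its mean difference, inside the 2-fold limit, was 0.78 with an SD of 1.74.

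Fbxw2 had 7 probe sets, more than any other gene. Its mean was 6.93 in the non-failing and 6.21 in the failing sample, with differences from -3.21 to 1.33, and 5 of the 7 were lower. Fbxw8 had close means, 7.40 and 7.32, from 4 probe sets that differed by 0.020, 3.02, -0.90 and -2.47. Fbxw9 differed by -0.12 with probe sets at 0.46 and -0.71. The 8 Fbxw genes conserved beyond rodents had a median difference of -0.10, with 2 higher and 1 lower, 37.5% beside 42.3% over all genes.

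Of the 5 measured genes of the rodent-expanded Fbxw group, 1 was higher and 2 were lower, 60% beside 42.3% over all genes. Fbxw19, from 8.5 to 6.55 by 1 probe set, and Fbxw16 are neighbours in the RefSeq table on chromosome 9. Fbxw16 was read at 9.32 and 7.27 in the non-failing and at 6.10 and 8.23 in the failing sample. Its mean difference of -1.13 thus joins probe sets at -3.22 and 0.96, and it turned to 0.96 when probe sets of a plain _at name alone were used. Fbxw13 was at 7.52 and 7.39 and Fbxw17 at 7.59 and 8.26, by 1 probe set each. Members of this group are close copies of each other, and probe sets may read more than 1 of them. The probe set at 0.96 is annotated with a further gene beside Fbxw16.

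Of the 17 Fbxl genes, 4 were higher (23.5%) and 2 lower (11.8%) in failing cardiac fibroblasts, beside 19.7% and 22.5% over all genes. The difference was positive in 11 of the 17, beside 30 of all 71 genes. Fbxl12, a receptor for the cell cycle inhibitor p57, was at 5.47 in the non-failing and 8.04 in the failing sample, 5.92-fold higher by 1 probe set. Its log2 difference of 2.57 as deposited became 5.6 after quantile normalization over the 5 samples. Fbxl13, from 6.58 to 8.03, and Fbxl8, from 6.53 to 7.87, had 1 probe set each, as had Fbxl19. The probe set of Fbxl13 is annotated with a further locus.

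The lower Fbxl genes were Fbxl17 and Fbxl21. Fbxl21, which acts on the cryptochromes of the circadian clock, was at 7.94 and 6.34 by 1 probe set. Fbxl20 had 4 probe sets, 3 lower, from -0.75 to -1.39, and 1 higher at 1.46, with a mean of -0.49 and an SD of 1.33. One of its probe sets differed between the 2 deposited forms of the data. With the whole-array intensities, Fbxl20 joined the lower genes, 17 against 16. It also joined the genes whose probe sets all differed in 1 direction, 11 against 10. Fbxl4, a mitochondrial F-box protein, was at 5.27 and 6.18 and lay just outside the rule, and Fbxl5, the iron-sensing receptor, was at 6.87 and 7.53. Differences were under 0.2 in either direction for 12 of the 71 genes, among them Fbxl16 at 7.76 and 7.70, Fbxl18 at 6.37 and 6.43, Fbxl6 at 5.91 and 6.00, and Fbxl15 at 5.50 and 5.37, each by 1 probe set.

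Just inside the 2-fold rule stood Fbxo18 at 1.03, Fbxo22 at -1.04 and Fbxl19 at 1.10. Just outside stood Fbxo6 at -0.94, Fbxl4 at 0.91 and Fbxo32 at 0.91. Of these 6 genes, 3 were read by 1 probe set. Of further genes that did not pass the rule, Fbxo10 stood at 6.48 and 5.59, Fbxo8 at 8.15 and 8.47, and, each over 3 probe sets, Fbxo28 at 6.21 and 5.53 and Fbxo42 at 6.71 and 6.47.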

How the data were processed

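The authors deposited log2 expression levels of 130 probe sets in 2 sheets, and intensity values of 45101 probe sets in a whole-array table without gene names. They pooled 5 mice per sample. The paper names the Affymetrix Mouse Expression Set, whereas the labelling kit and software on record are those for whole-transcript and exon arrays. For background correction, probe summary and normalization no method was found in the labels or the paper. Both forms were equal within 1 percent or 0.01 intensity units for 129 of 130 probe sets in the 2 samples, the exception reading Fbxl20. Each sheet also holds 4 columns of the authors' own log2 ratios, which were not used.

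The gene was the first symbol of the annotation, which listed several in 4 cases. RefSeq (GRCm38.p6) held each of the 71 names, 1 as an older symbol. The number of arrays limits the precision. Genes were named when they were cullins, listed, past 2-fold with a level of at least 6.0, next to that limit, or read by at least 3 probe sets, and the remaining genes were added after their values were seen. Members and lists were chosen with earlier results of these data known. Values of 1 gene are not reported here, although it is counted. Alternatives concerned the probe-set summary, probe sets, source table, scaling, level and fold. Python 3.11.15, pandas 2.3.3, NumPy 2.4.6, SciPy 1.17.1 and matplotlib 3.10.9 were used, and the functions were tested on simulated data.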

Additional observations from a re-analysis of the deposited data

How the results depend on the processing

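No paired analysis was possible because the failing and the non-failing condition had 1 sample each, and for the same reason no sample could be left out. The counts of genes 2-fold higher and lower ran from 12 to 20 and from 13 to 17 under the alternatives that kept the 2-fold limit, and a limit of 1.5-fold gave 20 and 24. The exception was a need for at least 2 probe sets of 1 direction, which gave 3 and 4 and which the 39 genes with 1 probe set fail by construction. With equal medians, which raise every difference by 0.16, 15 genes were higher and 14 lower, and the same counts followed from quantile normalization over the 2 fibroblast samples. Over the 5 samples it gave 20 and 16, and moved the fold of 24 of the 30 genes by over 1.5 times, against 1 of 30 over the 2 samples and 0 with equal medians. In each of these 3 scalings all 14 higher genes were kept, and 14, 14 and 15 of the 16 lower ones, with 0 turned. Of the single genes, Fbxw16 and Fbxo22 came inside the 2-fold limit with equal medians, at -0.97 and -0.89, and Fbxo45 and Fbxw7 with the highest probe set, at -0.16 and 0.39. In direction, Fbxo41 turned to 0.10 with the highest probe set and Fbxw16 to 0.96 with plain _at probe sets. The latter choice, made after seeing the data, left 5 genes whose probe sets all differed in 1 direction against 10, since only 23 genes then had several. No signal over background was given, which limits the reading of low levels.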

Other observations

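Probe sets named _a_at, _s_at or _x_at, which by the maker's naming can read several transcripts or genes, made up 26 of the 130. Of these, 18 were lower and 8 higher in failing cardiac fibroblasts, with a median difference of -1.09. Of the 104 with a plain _at name, 52 were lower and 52 higher, with a median difference of -0.024. Past 2-fold with a level of at least 6.0, 13 of the 26 were lower and 5 higher, against 24 and 23 of the 104. The part of this in the differences between genes was not tested, beyond the counts without such probe sets.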
